A study of Mus musculus with 8 samples.

Results

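The miRNAs described here are made in blood and immune cells, and comprise 8 of the 20558 small RNAs counted in mouse testis, 730 of which were entered as miRNAs. They were chosen by name as the arms of miR-451 and miR-144, which are erythroid, and of miR-142, miR-223 and miR-150, which belong to leukocytes. The same rule would also take miR-486 and miR-150-3p, but it matched no entry of either in the counts used here. Testis small RNA of 8 adult C57Bl/6 males was sequenced. Of these, 4 were kept on a standard diet (SD mice M1N, M2N, TN1 and TN2) and 4 on a Western-like diet rich in fat and sugar (WD mice M1W, M2W, M3W and M5W). The labels place the start of the diet at 4 weeks of age and mating at 4 months, and their text on feeding describes a lipid-rich diet for the controls too. The controls were therefore taken from the titles and the design text. The study's own text gives an earlier start of the diet. The question asked of these miRNAs was whether the testes of both diets carried similar amounts of blood cell RNA.

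A testis holds blood vessels and resident macrophages between its tubules, while the germ cells mature behind the blood-testis barrier. miR-451 and miR-144 are transcribed together in the red cell lineage under the control of GATA1. miR-451 is among the most abundant miRNAs of red cells and matures through Argonaute rather than Dicer, so that its product reaches into the loop of the hairpin and has no opposite arm. miR-142 is made throughout the haematopoietic lineages, miR-223 mainly in neutrophils and other myeloid cells, and miR-150 in mature lymphocytes. Each is therefore a marker of blood or of immune cells in an organ that consists mostly of germ cells.

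The total count was 3248708 in M1N, 3253798 in M2N, 3101032 in TN1 and 2064562 in TN2, and 2931793 in M1W, 2290920 in M2W, 2159625 in M3W and 3092399 in M5W. Values are given as counts per 1000000 counts of the library (CPM), scaled by TMM (trimmed mean of M-values) factors. At these totals the lowest level that could be shown, 3 counts, lay between 0.933 CPM in M5W and 1.39 CPM in TN2. The floor allows for counting error only, and reads copied by PCR are not independent molecules. Libraries were not alike within the SD group. On the first principal component, which held 47.7% of the variance, M1N lay at -71.4 and M2N at -34.8, whereas the other 6 mice lay between 4.28 and 33.9. The names of the SD mice also begin with different letters, M or TN, whose meaning is not given in the sources used here. Results are therefore given against all 4 SD mice and against each pair of them. Only SD mice have names with TN, so the diets cannot be compared within that set.

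By the mean over the 8 mice, the most abundant of these miRNAs was miR-223-3p with 152 ± 80.6 CPM (SD, n = 8). It was followed by miR-451 with 91.0 ± 35.9, miR-142-5p with 79.6 ± 13.0 and miR-150-5p with 66.1 ± 35.6 CPM (SD, n = 8). These neighbours in the order lay within the spread between mice. Lower down came miR-142-3p with 16.4 ± 4.83 CPM and miR-144-3p with 3.91 ± 1.97 CPM, while miR-144-5p had 2.96 ± 1.72 CPM and miR-223-5p 0.526 ± 0.696 CPM (SD, n = 8). Together the 8 took between 0.296% (M5W) and 0.487% (M1N) of the counts of the miRNA class. For comparison, miR-34c-5p of the male germ line alone had between 6569 CPM (M1W) and 10588 CPM (M3W). All but miR-223-5p were detected in every library, at a small part of the miRNA counts. The filter on low counts, with a minimum count of 10 and a minimum total of 15, was passed by 6 of the 8. The weaker arms miR-144-5p, with 15, 6, 7 and 3 counts in SD and 7, 14, 6 and 6 in WD mice, and miR-223-5p, with 6, 1, 0 and 1 counts in SD and 0, 1, 0 and 3 in WD mice, were not tested.

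In RefSeq (GRCm38.p6), 7 of the 8 were matched to a mature sequence. miR-451 is named miR-451a there, and the arms of miR-142 are named miR-142a. miR-150-5p was not matched. The 7 sequences have 7 different seeds (bases 2 to 8, in capitals), so no seed is shared among them. They are shown for the miRNAs whose levels are followed through the mice:
miR-451: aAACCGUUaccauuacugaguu
miR-144-3p: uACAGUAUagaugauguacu
miR-223-3p: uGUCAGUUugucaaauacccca
miR-142-5p: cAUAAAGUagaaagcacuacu
miR-142-3p: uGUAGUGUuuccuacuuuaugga

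The hairpins show how the entries relate to their precursors, with the mature miRNAs in capitals. That of miR-451 has 72 bases and carries a single product, from base 17 to base 38, which runs from the 5′ side into the loop. That of miR-142 has 64 bases and carries both arms, the 5p arm from base 4 to 24 and the 3p arm from base 40 to 62.
Mir451a hairpin: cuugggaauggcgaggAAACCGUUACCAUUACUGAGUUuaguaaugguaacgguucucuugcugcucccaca
Mir142 hairpin: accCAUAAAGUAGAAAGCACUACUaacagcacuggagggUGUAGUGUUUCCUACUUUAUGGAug

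No blood or immune cell miRNA was called between the diets when all 8 mice were compared. Of the 6 tested, 0 had a Benjamini-Hochberg adjusted p under 0.05 in the quasi-likelihood test of edgeR. The same was true of 0% of all 16955 small RNAs tested, and DESeq2 and limma-voom also called 0 of the 6. At an unadjusted p of 0.05 or less each of these tools gave 1 of the 6, miR-142-3p, beside 14.6% of all small RNAs and 16.5% of the miRNA class in edgeR's test. Of the 6, 3 were lower in WD mice, and their median log2 fold change was -0.10, beside 0.03 for the 418 tested entries of the miRNA class and -0.01 for all small RNAs tested. The order of the mice varied from miRNA to miRNA, also within the erythroid and the leukocyte sets.

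Among the erythroid miRNAs, miR-451 had 63.1, 37.3, 142.1 and 107 CPM in the SD mice M1N, M2N, TN1 and TN2, and 70.3, 128, 108 and 71.5 CPM in the WD mice M1W, M2W, M3W and M5W. M1N and M2N were the lowest of all mice and TN1 was the highest, so that the SD mice spanned the whole range of the WD mice. The means were 87.5 ± 46.5 CPM in SD and 94.4 ± 28.4 CPM in WD mice (SD, n = 4 each), and the log2 fold change was 0.11 ± 0.32 (standard error, edgeR adjusted p = 0.885). With a mouse left out it ranged from -0.15 (M2N) to 0.45 (TN1), and its sign also turned without M1N (-0.02) and M2W (-0.07). In bulk RNA, fewer cells of a type and less of a miRNA per cell cannot be told apart.

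miR-144-3p, the partner of miR-451 in the same transcript, was counted far less often, with 10, 3, 20 and 15 counts in M1N, M2N, TN1 and TN2 and 13, 9, 5 and 10 in M1W, M2W, M3W and M5W. By level TN1 and TN2 were the highest mice, which for miR-451 held of TN1 alone, and M2N was the lowest, where its 3 counts stood at the floor. The levels were 4.41 ± 2.76 CPM in SD and 3.41 ± 0.884 CPM in WD mice (SD, n = 4 each), which overlapped (log2 fold change -0.31 ± 0.46, standard error, edgeR adjusted p = 0.757). The log2 fold change was -0.04 without TN1, -0.05 without TN2, -0.19 without M3W and -0.67 without M2N. In the mouse genome (NCBIM37, also called mm9, with the GENCODE M1 annotation), Mir144 lies on chromosome 11 from 77886507 to 77886572 and Mir451 from 77886672 to 77886743, both on the plus strand and 99 bases apart, with no other gene annotated there. The count of miR-451 was between 15.5 times (TN2) and 46.8 times (M3W) that of miR-144-3p. Across the 8 mice the log2 CPM of miR-451 and miR-144-3p had a Pearson r of 0.74 (exact permutation test, two-sided, p = 0.0338, adjusted p = 0.169 over 10 pairs of families). Spearman's rho was 0.48 (exact permutation test, p = 0.243, adjusted p = 0.608). The relation rested on few mice, with an r of 0.17 without M2N and TN1, the farthest from the median of miR-451, and of 0.36 without M1N and M2N.

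Of the leukocyte miRNAs, miR-223-3p, the myeloid marker, had 297, 205, 106 and 99.6 CPM in M1N, M2N, TN1 and TN2, and 92.4, 226, 112 and 74.7 CPM in M1W, M2W, M3W and M5W. M1N, M2N and the WD mouse M2W were high and the other 5 mice low, with no mouse between 112 and 205 CPM. The diets overlapped, at 177 ± 93.5 CPM in SD and 126.2 ± 68.4 CPM in WD mice (SD, n = 4 each), and the log2 fold change was -0.50 ± 0.36 (standard error, edgeR adjusted p = 0.496). It was -0.93 without M2W, -0.13 without M1N and -0.30 without M5W. Mir223 is on the plus strand of chromosome X, from 93438156 to 93438265, within an exon of the annotated gene F630028O10Rik.

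miR-150-5p, the lymphocyte marker, followed the same mice, with 128, 101, 51.7 and 40.3 CPM in M1N, M2N, TN1 and TN2 and 38.8, 91.2, 44.7 and 33.3 CPM in M1W, M2W, M3W and M5W. Again M1N, M2N and M2W stood above the other 5, and the diets overlapped. The means were 80.3 ± 41.4 CPM in SD and 52.0 ± 26.6 CPM in WD mice (SD, n = 4 each), and the log2 fold change was -0.64 ± 0.35 (standard error, edgeR adjusted p = 0.391), which was -1.05 without M2W and -0.33 without M1N. Mir150 is on the plus strand of chromosome 7, from 52377127 to 52377191, with no other gene annotated there. Although each of miR-223-3p and miR-150-5p differed by up to 3.98-fold and 3.85-fold between mice, the count of the former was between 2.03 (M2N) and 2.49 (M3W) times that of the latter in every mouse. Of the 10 pairs of families for which a correlation was computed, only this one had an adjusted p under 0.05 in the exact permutation test, by Pearson's and by Spearman's coefficient. Since the mice form a high and a low set for both miRNAs, of 3 and 5 mice, a pooled coefficient is given for none of the 7 pairs that contain either of them. The relation within either set was not tested.

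miR-142 did not follow this order. Its 5p arm had 76.1, 81.6, 66.8 and 64.4 CPM in M1N, M2N, TN1 and TN2, and 77.2, 104, 91.7 and 74.7 CPM in M1W, M2W, M3W and M5W. The highest mouse had 1.61 times the level of the lowest, the narrowest range of the 6 miRNAs tested, and M2W and M3W lay above every SD mouse. In CPM the diets overlapped, with 72.2 ± 8.05 CPM in SD and 86.9 ± 13.6 CPM in WD mice (SD, n = 4 each), and the log2 fold change was 0.26 ± 0.17 (standard error, edgeR adjusted p = 0.444), which was 0.17 without M2W. On another scale, chosen after seeing the data, they did not overlap. As a share of the miRNA counts miR-142-5p took 0.0637%, 0.0739%, 0.0700% and 0.0729% in the SD mice and 0.0843%, 0.0815%, 0.0886% and 0.0791% in the WD mice, in the same order. On that scale it was the only tested member to separate the diets, 1 of the 6, beside 4.78% of the tested entries of the miRNA class. With miR-451 the 5p arm had an r of 0.02 over the 8 mice (exact permutation test, p = 0.952, adjusted p = 0.952) and a rho of -0.05 (exact permutation test, p = 0.935, adjusted p = 0.935), and without M2N and TN1 an r of 0.49. With miR-144-3p its r was -0.48 (exact permutation test, p = 0.222, adjusted p = 0.512) and its rho -0.60 (exact permutation test, p = 0.132, adjusted p = 0.608), and without M2W and M3W its r was -0.87. None of these pairs passed the adjustment.

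The 3p arm of miR-142 was the only member in which the diets did not overlap in CPM, with 6.51, 13.7, 15.4 and 16.7 CPM in M1N, M2N, TN1 and TN2, and 17.1, 21.5, 20.7 and 19.9 CPM in M1W, M2W, M3W and M5W. Every WD mouse was above every SD mouse, by a small margin between TN2 and M1W. Such a separation, found in 1 of the 6, was present in 8.37% of the tested entries of the miRNA class. The means were 13.1 ± 4.55 CPM in SD and 19.8 ± 1.92 CPM in WD mice (SD, n = 4 each), and the log2 fold change was 0.60 ± 0.26 (standard error, edgeR adjusted p = 0.326). The exact permutation test gave p = 0.0286, the smallest that 4 mice against 4 allow. Any such separation gives this value, so it adds nothing to the separation itself. In edgeR's test its unadjusted p was 0.0335, and exceeded 0.05 when M1N, M2N, M2W, M3W or M5W was left out. Without M1N, which had 19 counts, the log2 fold change was 0.38. As a share of the miRNA counts, where the 5p arm separated the diets, the 3p arm did not, with 0.0189% in TN2 and 0.0169% in M2W. With the miRNA class fitted alone, neither arm had an unadjusted p of 0.05 or less.

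Both arms come from the hairpin printed above, encoded on the plus strand of chromosome 11 from 87570366 to 87570429, within A430104N18Rik but outside its exons. The count of the 5p arm was 11.7 times that of the 3p arm in M1N and 5.95 times in M2N, and between 3.75 and 4.84 times in the other 6 mice. M1N and M2N thus differed from the rest in the balance of the arms as well, whereas TN1 and TN2 lay among the WD mice.

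**Figure D1:**
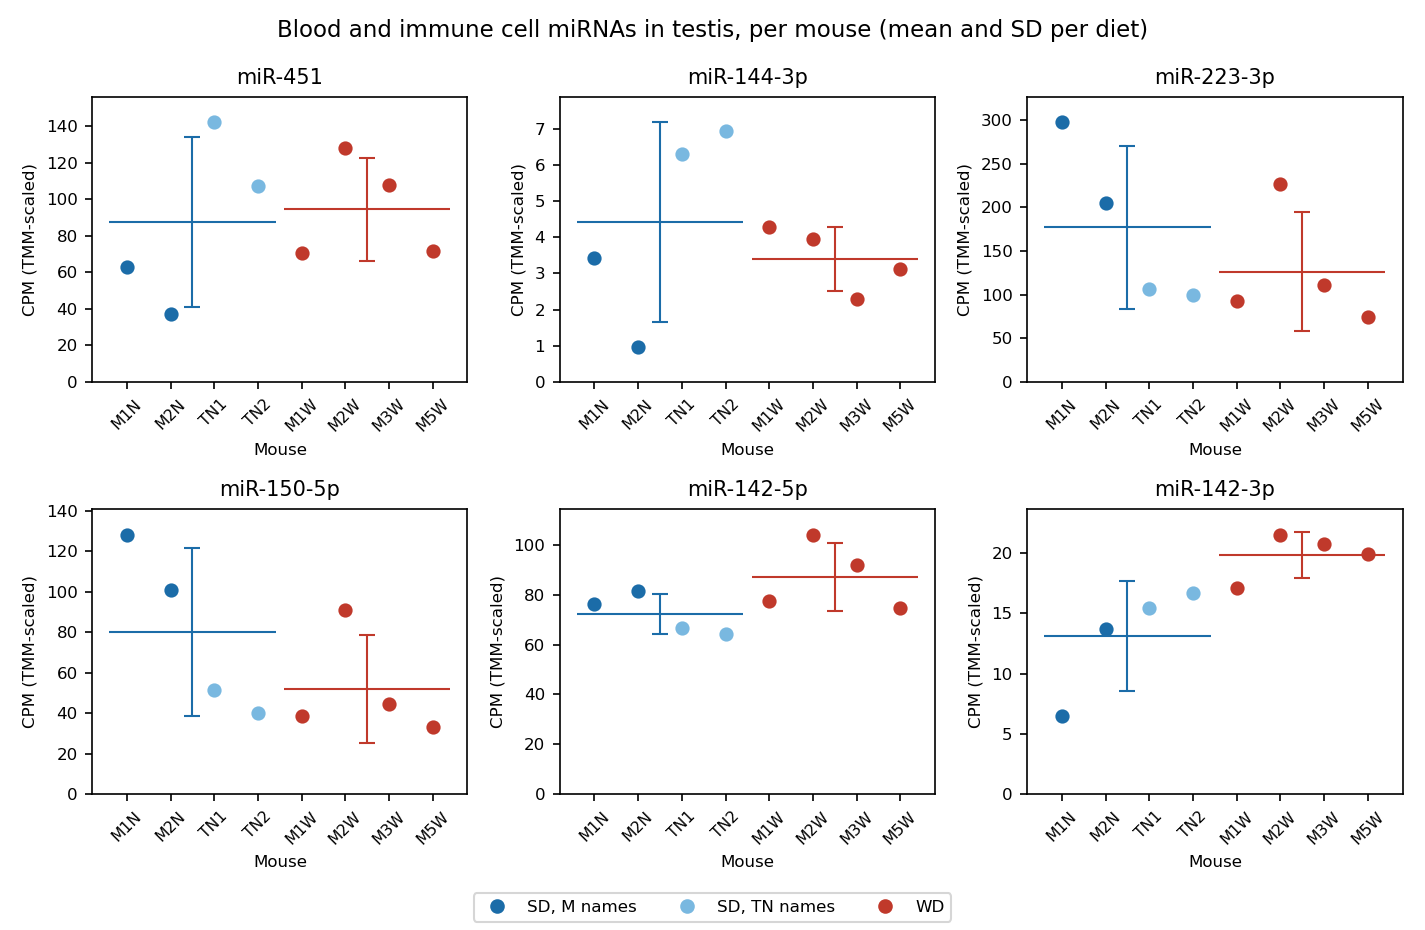
Level of each of the 6 tested miRNAs (CPM, TMM-scaled, vertical axes from 0) in each mouse, with 1 point per mouse, the mean of each diet as a horizontal line and the SD as an error bar (n = 4 each). M1N and M2N are lowest for miR-451 and, with M2W, highest for miR-223-3p and miR-150-5p, while on this scale only miR-142-3p separates the diets, and as a share of the miRNA counts only miR-142-5p.

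Summed over the 3 erythroid entries, the level was 71.6, 40.2, 151 and 116 CPM in M1N, M2N, TN1 and TN2, and 76.9, 138, 113 and 76.5 CPM in M1W, M2W, M3W and M5W. Summed over the 5 leukocyte entries, it was 510, 402, 240 and 221 CPM in the same SD mice and 226, 443, 269 and 203 CPM in the WD mice. By these sums M1N and M2N had the least erythroid and, with M2W, the most leukocyte miRNA, and M2W was high in both in CPM. The erythroid sum is nearly all miR-451 and does not stand for each entry. miR-144-5p was highest in M2W (6.14 CPM) and M1N (5.14 CPM), and miR-144-3p in M1N (3.43 CPM) lay above M3W (2.30 CPM) and M5W (3.11 CPM). Within the leukocyte sum, miR-142-3p went the other way and was lowest in M1N and M2N. The count of leukocyte miRNAs was 7.12 times that of erythroid miRNAs in M1N and 10.01 times in M2N, 1.60 times in TN1 and 1.91 times in TN2, and between 2.38 times (M3W) and 3.21 times (M2W) in WD mice. On this ratio, which was not tested, the WD mice lay between the pairs of SD mice and overlapped with neither. M1N and M2N lay beyond all other mice, on either side, in 30.6% of the tested entries of the miRNA class too. By diet, the erythroid sums were 94.5 ± 48.6 CPM in SD and 101 ± 30.0 CPM in WD mice, and the leukocyte sums 343 ± 137 CPM and 285 ± 109 CPM (SD, n = 4 each), differences within the spread between mice.

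**Figure D2:**
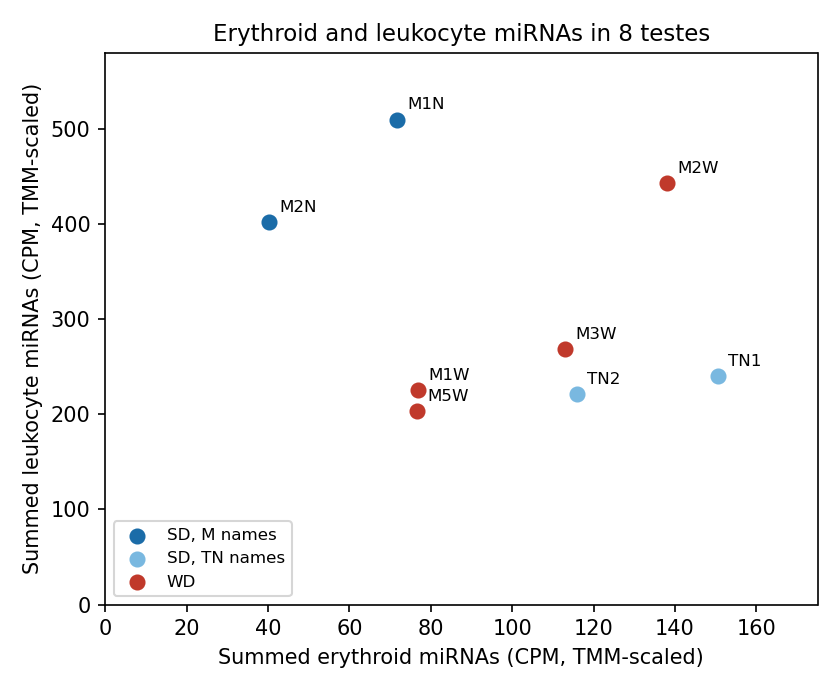
Summed level of the 5 leukocyte miRNAs (vertical axis, CPM, TMM-scaled) against that of the 3 erythroid miRNAs (horizontal axis, CPM, TMM-scaled), with 1 point per mouse, coloured by diet and by the letters of the name. M1N and M2N lie at upper left with 510 and 402 CPM of leukocyte miRNAs, TN1 and TN2 at lower right with 151 and 116 CPM of erythroid miRNAs, and M2W is high on both axes.

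The share of the library taken by all miRNAs moved with part of this. It was 12.7% in M2W, 10.7% in M1N and 10.6% in M2N, and between 9.23% (TN2) and 10.4% (M3W) in the other 5 mice. M2W was the highest WD mouse for 6 of the 8 blood and immune cell miRNAs in CPM, and for 3 of the 8 as a share of the miRNA counts, by which it was the lowest WD mouse for miR-142-3p. On the latter scale the leukocyte miRNAs took 0.427% in M1N, 0.364% in M2N and 0.348% in M2W, against 0.215% (M5W) to 0.260% (M3W) in the other 5. The erythroid miRNAs took 0.158% in TN1, 0.131% in TN2, 0.109% in M3W, 0.108% in M2W, 0.0839% in M1W, 0.0810% in M5W, 0.0600% in M1N and 0.0364% in M2N, so that M2W was no longer next to TN1. The part of the miRNA share in the order of the mice was not tested.

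Set against M1N and M2N alone, 4 of the 7 then tested were called, beside 20.8% of all 17495 small RNAs tested in that comparison, and the same number had an unadjusted p of 0.05 or less, beside 35.5%. In WD mice miR-223-3p was lower by this comparison (log2 fold change -1.0 ± 0.29, standard error, edgeR adjusted p = 0.0183), as was miR-150-5p (-1.15, standard error 0.27, adjusted p = 0.00622). miR-451 was higher (0.91, standard error 0.26, adjusted p = 0.0178), as was miR-142-3p (0.95, standard error 0.30, adjusted p = 0.0262). Set against TN1 and TN2 alone, 0 of the 6 were called in edgeR's test, beside 0.134% of all 17168 small RNAs tested, and 2 had an unadjusted p of 0.05 or less, miR-142-5p (log2 fold change 0.40) and miR-144-3p (-0.93), beside 3.79%. The log2 fold changes of miR-223-3p, miR-150-5p and miR-451 against this pair were 0.28, 0.15 and -0.42, opposite in sign to those against M1N and M2N, and that of miR-144-3p turned as well, from 0.66. The median log2 fold change of the whole miRNA class also turned, so a change of sign is not particular to these miRNAs. It was -0.14 over the 453 entries tested against M1N and M2N, with 57.2% below 0. Against TN1 and TN2 it was 0.19 over 442 entries, with 28.5% below 0. The comparisons share the 4 WD mice and have 2 SD mice each, and the difference between them was not tested.

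The position of M1N and M2N was not limited to blood cell miRNAs. In a pattern noted after the values were seen, both lay beyond all other mice, on either side, in 3 of the 6 tested (miR-451, miR-142-3p and miR-150-5p) and in 30.6% of the 418 tested entries of the miRNA class. Among 360 other mature miRNAs, the 5 whose centred log2 CPM lay closest to that of miR-223-3p over the 8 mice were miR-328-3p, miR-1839-3p, miR-140-3p, miR-322-5p and miR-320-3p, with mean absolute differences of 0.15 to 0.16. For miR-451 they were miR-99a-3p (0.18), miR-872-3p (0.25), miR-409-3p (0.27), miR-136-3p (0.30) and miR-362-3p (0.30). The blood and immune cell miRNAs described here were not among the 360, so none of them could be listed.

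Among the tested entries of other immune-associated miRNAs, only the arms of miR-342 followed miR-223-3p and miR-150-5p. The list of miR-155, miR-146a, miR-146b and miR-342 had 6 entries, 5 of them tested, none at 0 in every mouse. Their summed level was 976, 754, 492 and 442 CPM in M1N, M2N, TN1 and TN2, and 435, 860, 556 and 428 CPM in M1W, M2W, M3W and M5W, nearly all of it miR-342-3p. By this sum M1N, M2N and M2W were again the highest mice, but it does not stand for each entry. On average M1N and M2N had 1.88 times the level of TN1 and TN2 for miR-342-3p and 2.33 times for miR-342-5p. The same ratio was 0.96 for miR-146a-5p, 0.81 for miR-146b-5p and 0.59 for miR-155-5p. Of the 5, 1 had an unadjusted p of 0.05 or less, miR-146a-5p, an inducible regulator of NF-κB signalling, beside 14.6% of all small RNAs tested, and none an adjusted p under 0.05 by edgeR. It had 5.14, 7.01, 7.56 and 5.09 CPM in the SD mice and 10.2, 17.1, 6.91 and 11.8 CPM in the WD mice, in the same order. M3W lay within the SD mice and the other WD mice above them (log2 fold change 0.87 ± 0.29, standard error, edgeR adjusted p = 0.318).

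Among miRNAs of the vessel wall and stroma, the largest sums were found in M2W. The endothelial and vascular smooth muscle list (6 entries, 5 tested, led by miR-145-5p) summed to 6266, 6401, 4863 and 4398 CPM in M1N, M2N, TN1 and TN2, and to 4499, 8399, 5900 and 4570 CPM in M1W, M2W, M3W and M5W. The stromal list (6 entries, all tested, led by miR-199a-5p) summed to 1062, 952, 802 and 749.9 CPM and to 716, 1355, 895 and 702 CPM in the same order. M1N and M2N exceeded TN1 and TN2 in both, 1.37-fold and 1.30-fold on average, against 1.98-fold for the leukocyte and 0.42-fold for the erythroid miRNAs. The vascular sum is mostly miR-145-5p, and miR-143-3p of the same list, named after its values were seen, went the other way, with 165 and 296 CPM in M1N and M2N and 355 and 402 CPM in TN1 and TN2. Against M1N and M2N alone miR-143-3p was higher in WD mice (log2 fold change 0.87, edgeR adjusted p = 0.0219). It was 1 of the 5 tested vascular entries to be called there, beside 20.8% of all small RNAs tested in that comparison. Against all 4 SD mice, in neither list did an entry have an unadjusted p of 0.05 or less in edgeR's test. The part of these cell types in the order of the mice was not tested.

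The testis itself was represented by a germ cell list of 19 entries, all tested, which summed to between 17331 CPM (TN2) and 22741 CPM (M1N) in SD mice and between 17320 CPM (M1W) and 22073 CPM (M3W) in WD mice. Of the 19, 3 were higher in WD mice by the unadjusted limit of 0.05, miR-741-5p (log2 fold change 0.50), miR-743b-3p (0.41) and miR-883a-5p (0.54). A further 4 were lower, miR-449a-5p (-0.62), miR-34b-3p (-0.45), miR-34c-3p (-0.50) and miR-871-3p (-0.49), beside 14.6% of all small RNAs tested at this limit in either direction. None passed at an adjusted p under 0.05 by edgeR. Against M1N and M2N alone 7 of the 19 were called, beside 20.8% of all small RNAs tested, and against TN1 and TN2 alone 0, beside 0.134%. miR-202, a miRNA of the gonads led by its 5p arm, summed to 3609 to 4193 CPM in SD mice and 4187 to 7021 CPM in WD mice, with M2W the highest, and with all 4 SD mice the unadjusted p was above 0.05 for both arms. Against M1N and M2N alone miR-202-3p was lower in WD mice (log2 fold change -0.73, edgeR adjusted p = 0.0203), while miR-202-5p was not called (0.42, adjusted p = 0.184), and against TN1 and TN2 neither was. The median log2 fold change of WD against SD mice was 0.44 for the immune-associated, 0.11 for the endothelial and vascular, 0.03 for the stromal and 0.10 for the germ cell list, beside -0.01 for all small RNAs tested.

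miR-122, which marks liver, was included as the marker of a tissue that should be missing. miR-122-5p had 49 counts in TN1 and 28 in TN2, and miR-122-3p had 12 and 9, while both arms had 0 counts in all 6 mice whose names begin with M. No other small RNA of the 20558 had 0 counts in all 6 of those mice. A count of 0 allows up to 0.933 to 1.38 CPM in these libraries, whereas miR-122-5p had 15.4 CPM in TN1 and 13.0 CPM in TN2. The mice with the most miR-451 among SD mice were thus the mice with miR-122, and the part of its source in the levels of the blood and immune cell miRNAs was not tested.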

How the data were processed

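Per the labels and the study's methods, the authors sequenced testis small RNA on a SOLiD instrument, trimmed the reads, aligned them to mm9 with Bowtie, annotated them with miRBase, Rfam and a further non-coding RNA database, and deposited the raw count of each small RNA in 1 column per mouse. DESeq is also named in the submitters' processing notes. How a read that fits several small RNAs was counted, and the version of Bowtie, are not given in the sources used here.

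The counts were tested with edgeR 4.0.16 in R 4.3.3: column totals over all small RNAs as library sizes, TMM factors, filterByExpr (minimum count 10, minimum total 15) and the two-sided quasi-likelihood test with diet as the only term. Adjustment of p-values was by Benjamini-Hochberg over all 16955 small RNAs tested, and p-values measure only the spread between these mice. Standard errors, taken from the F statistic, are approximate. Log2 CPM values used a prior count of 2. The exact permutation test took all 70 assignments of 8 mice to the diets, and that of a correlation all pairings. Over 28 pairs of libraries the chi-square of the counts, per degree of freedom, was between 2.42 and 22.2, so no library appeared to be entered again.

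Alternatives were DESeq2 1.42.0, limma-voom (limma 3.58.1), column totals, the miRNA class fitted or adjusted alone, other filters, each pair of SD mice, each mouse left out, and the number shared by M1 and M2 mice as a block. The procedure was tested on simulated data. Every member is named. Of the lists of other cell types, the most abundant entry and those with an unadjusted p of 0.05 or less are named. Some others, chosen after their values were seen, are named as well. The members and lists were chosen with earlier results of these data known. SciPy 1.17.1, pandas 2.3.3 and matplotlib 3.10.9 were also used.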

Additional observations from a re-analysis of the deposited data

Results flagged for a closer look

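Of 22 sets of 4 mice examined (8 miRNAs, 2 sums and the total count, in each diet), 1 held a mouse far from the others. The total count of TN2 was 2064562, whereas the other SD mice had 3101032 to 3253798, so that its gap to the nearest of them was 0.872 of the whole range. Chance gives such a gap in about 1 of 20 sets, or 1.1 of 22. None of the blood and immune cell miRNAs or their sums had a mouse that far from the others of its diet.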

How the results depend on the processing

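DESeq2, limma-voom, column totals, either filter, the miRNA class adjusted or fitted alone, TN1 and TN2 as the only SD mice, and leaving out each mouse all gave 0 members with an adjusted p under 0.05. There were 4 with M1N and M2N as the only SD mice (20.8% of all small RNAs).

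The count at an unadjusted p of 0.05 or less, reported as 1, was 0 in the miRNA class fitted alone (12.6% of its entries), 4 against M1N and M2N (35.5% of all small RNAs), 2 against TN1 and TN2 (3.79%), and 0 to 2 with a mouse left out (7.49% without M5W to 22.8% without TN2). Without TN1, TN2 or M2W miR-150-5p was added (-0.81, -0.86 and -1.05), without M2W miR-223-3p as well (-0.93), and miR-142-3p was lost without M1N, M2N, M2W, M3W or M5W (0.38 to 0.63).

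The diets did not overlap in 1 member in CPM (miR-142-3p) and in 1 as a share of the miRNA counts (miR-142-5p), a scale chosen after seeing the data. Signs turned for miR-144-3p (3.48e-06 by limma-voom, 0.66 against M1N and M2N), for miR-223-3p, miR-150-5p and miR-451 against TN1 and TN2 (0.28, 0.15 and -0.42), and for miR-451 with a mouse left out (-0.15 to 0.45). The log2 ratio of the summed erythroid miRNAs, 0.10, was 0.86 against M1N and M2N, -0.40 against TN1 and TN2, -0.01 as a share of miRNA counts, and -0.16 (without M2N) to 0.41 (without TN1) with a mouse left out, also below 0 without M1N (-0.02) or M2W (-0.09). That of the leukocyte miRNAs, -0.27, was 0.31 against TN1 and TN2, -0.68 against M1N and M2N, and -0.56 (without M2W) to -0.01 (without M1N) with a mouse left out. The cause was not tested.

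With the replicate block on the number shared by M1 and M2 mice (4 mice), 2 members had an adjusted p under 0.05 (6.90% of all small RNAs) and 4 an unadjusted p of 0.05 or less (22.6%), with miR-144-3p at 0.94. Without the block on these mice, a fit chosen after seeing the data, there were 1 (6.13%) and 4 (24.1%), with miR-144-3p at 0.92. The deviations of M1N and M1W had an r of -0.08 across small RNAs and those of M2N and M2W 0.24. Pairs of unlike number had similar values, 0.23 for M1N and M2W and -0.07 for M2N and M1W. The numbers were therefore not taken to pair the mice.

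Depth limits miR-144 and miR-223-5p, whose counts were as low as 3 and 0.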
